A study of Mus musculus with 2 samples.

Results

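The CCAAT/enhancer-binding proteins (C/EBPs) were examined in the mouse mammary gland over the first day of involution, in which the gland regresses once suckling ends. The members were the probe sets whose platform gene symbol was Cebpa, Cebpb, Cebpd, Cebpg or Cebpz. There were 8 of them among 45101 probe sets, and they covered 4 of the 5 genes, out of 18193 named genes on the array: 1 probe set for Cebpa, 2 for Cebpb, 2 for Cebpd and 3 for Cebpg. No probe set carried the symbol Cebpz in the annotation used, which is not analysed here. The study had 2 groups of 1 array, which were compared, so no difference below has a replicate error or a test. Both groups were CD1 females, bought at 6 weeks of age, mated, given litters of 6 pups and weaned by force on day 10 of lactation. Glands of the day 0 group were taken at weaning and those of the day 1 group 1 day later. Each array held RNA pooled from 5 mice, whole gland and not sorted cells.

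C/EBPα, β and δ are transcription factors with a basic DNA-binding region and a leucine zipper, through which they pair with themselves, with each other or with related factors such as Atf4 and Ddit3. C/EBPγ carries the same domain but lacks a strong activation domain, and can dampen its partners. In the mammary gland C/EBPβ is needed for growth and differentiation of the secretory epithelium. C/EBPδ is a target of Stat3, the factor activated by leukaemia inhibitory factor at the onset of involution. Cebpz bears a C/EBP name but encodes a different kind of protein, a relative of the yeast ribosome assembly factor Mak21.

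Cebpd was the member with the largest difference between the days, Cebpb was higher by less than 2-fold, Cebpa was close to even, and Cebpg was slightly lower on the deposited scale. Values are MAS 5 signals, a summary of the intensity of a probe set on a linear scale. A floor of 77.7 units, the median of all signals, replaced lower values before a ratio was taken, and a gene was measured if at least 1 array lay above it. All 4 genes were measured. Of their 8 probe sets, 6 exceeded the floor on each day and 2 did so on neither. Cebpd, 1 gene of the 4, was at least 2-fold higher on day 1, against 10.4% of the 13239 measured genes of the array. None of the 4 was at least 2-fold lower, a difference seen in 13.3% of measured genes. At 1.5-fold 2 members, Cebpd and Cebpb, were higher, against 20.4% of measured genes. Counts over 4 genes are too few to set this family apart from other genes.

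Cebpd, an acute phase member of the family, had a signal of 2041.7 on day 0 and 6785.9 on day 1 at probe set 1423233_at. Day 1 was thus 3.32-fold higher, a log2 ratio of 1.73. In whole tissue, more cells of a type and more RNA per cell cannot be told apart. Of all measured genes, 398 had a higher ratio and 97.0% a lower one. The signal already lay 26.3 times over the floor at weaning, so neither day is a bound. The other probe set of Cebpd, 1456605_at, read 65.6 and 31.5, below the floor on both arrays, and gives no ratio. The ratio of Cebpd therefore rests on a single probe set. It was above 2-fold in all 10 alternative settings, between 1.66 and 2.90 log2.

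Cebpb encodes the member tied to secretory differentiation, and its messenger RNA yields long activating and short inhibitory proteins by choice of the start codon. Expression arrays cannot tell these proteins apart. At probe set 1418901_at the signal was 1815.3 on day 0 and 3271.5 on day 1, which is 1.80-fold higher or 0.85 log2. A dimmer probe set, 1427844_a_at, went the same way with 690.6 and 868, which is 1.26-fold or 0.33 log2. The 2 probe sets thus differed by 0.52 log2 in their ratio. For comparison, the pooled SD of such ratios within a gene was 0.56 log2 over the 3943 genes with several usable probe sets, a spread between probes and not between mice. Neither probe set reached 2-fold as deposited. After scalings that raise every ratio the brighter one passed it, with 1.28 log2 on ribosomal protein genes, 1.498 on array medians and 2.01 on hybridisation controls (spiked-in bacterial transcripts).

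Cebpa, known as a driver of terminal differentiation in fat cells and myeloid cells, had signals of 508.4 on day 0 and 585.6 on day 1. Its only probe set was 1.15-fold higher, or 0.20 log2, a ratio lower than that of 4608 measured genes. It lay between 0.10 and 0.85 log2 in 9 of the 10 alternatives, and at 1.37 after hybridisation control scaling.

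Cebpg was the member with a lower signal on day 1 as deposited. Probe set 1425262_at read 1027.8 on day 0 and 760.3 on day 1, or 1.35-fold lower. Probe set 1451639_at read 375.8 and 278.5, also 1.35-fold lower. Their log2 ratios were -0.43 and -0.43, and differed by 0.0026. The third, 1425261_at, read 71 and 44.5, below the floor on both days. All 3 cite the same source sequence, so they are no independent measures of the gene. The direction depended on the scaling: -0.43 log2 as deposited became 0.21 after median centring, -0.00078 when scaled on ribosomal protein genes and 0.73 when scaled on the hybridisation controls.

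**Figure D1:**
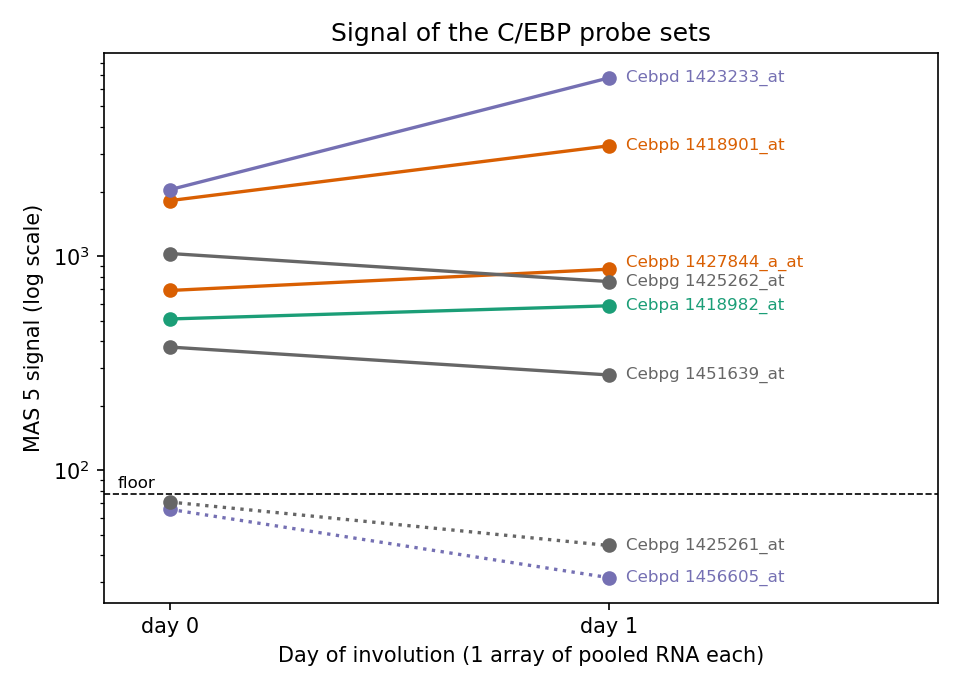
MAS 5 signal (log axis) of the 8 C/EBP probe sets on day 0 and day 1 of involution, 1 array of pooled RNA per day, with a line joining the values of each probe set. Cebpd 1423233_at goes from 2041.7 to 6785.9; dotted lines mark the 2 probe sets below the floor of 77.7 (dashed) on both arrays.

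The order of the ratios, Cebpd above Cebpb above Cebpa above Cebpg, was the same in all 11 settings, the deposited one included. Differences between members do not depend on a single factor per array, since such a factor cancels. The other floors and the omission of shared probe sets left every member ratio as deposited. The order could thus move only under quantile normalization, loess, the pseudocount or the mean of probe sets. Cebpd exceeded Cebpb by 0.88 log2 and Cebpg by 2.17 log2. Over the 10 alternatives the first difference lay between 0.88 and 1.14 and the second between 2.15 and 2.26. Cebpb exceeded Cebpa by 0.65 log2, and Cebpa exceeded Cebpg by 0.64. How much of each gap would recur in other mice cannot be seen with 1 pool per day. The probe set SD of 0.56 describes 1 ratio. A gap takes 2 ratios, so its spread between probes is larger. The gaps of 0.65 and 0.64, and that of 0.88 from Cebpd to Cebpb, are not clearly beyond such a spread. Signals of different genes are not ranked against each other, because probes differ in how brightly they bind.

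**Figure D2:**
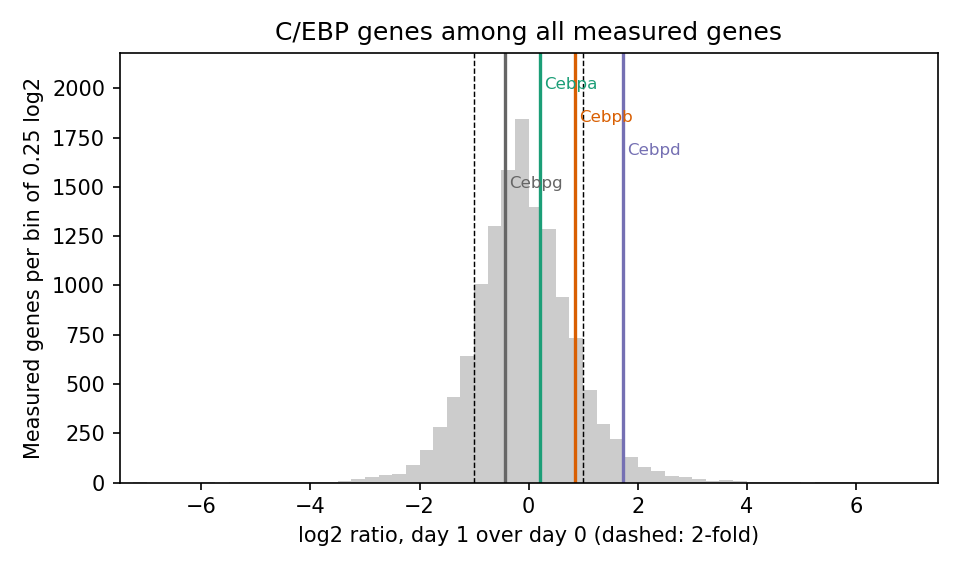
Number of the 13239 measured genes (grey bars) in bins of 0.25 log2 of the day 1 over day 0 ratio, with a coloured line at the ratio of each C/EBP gene and dashed lines at 2-fold. Cebpd at 1.73 is the only one of the 4 beyond a dashed line.

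Of the settings tried, the 3 scalings that multiply each array by 1 factor moved these ratios most. The trimmed means of the arrays were equal, but their medians were not, with 94.2 for day 0 and 60.1 for day 1. The 15 hybridisation control probe sets had a median log2 ratio of -1.16, and the median over measured genes was -0.12. The Cebpd ratio shifted by 0.65 log2 with median centring, by 0.43 on ribosomal protein genes and by 1.16 on hybridisation controls, and by -0.070 and -0.045 with quantile normalization and loess. Of the genes called at 2-fold in either direction, 43.8% were higher as deposited, 84.6% after median centring, 74.0% when scaled on ribosomal protein genes and 95.7% on hybridisation controls. With quantile normalization and loess it was 50.2% and 53.4%, and with floors at the 25th and 75th percentile 31.6% and 58.4%. Relative to other genes Cebpd stayed high: between 95.7% and 97.9% of measured genes had a lower ratio in the 10 alternatives. Dividing the 3' by the 5' control signal, a sign of RNA integrity, gave 2.5 (day 0) and 1.51 (day 1) at beta-actin, and 1.52 and 1.48 at Gapdh. Its part in the C/EBP ratios was not tested.

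**Figure D3:**
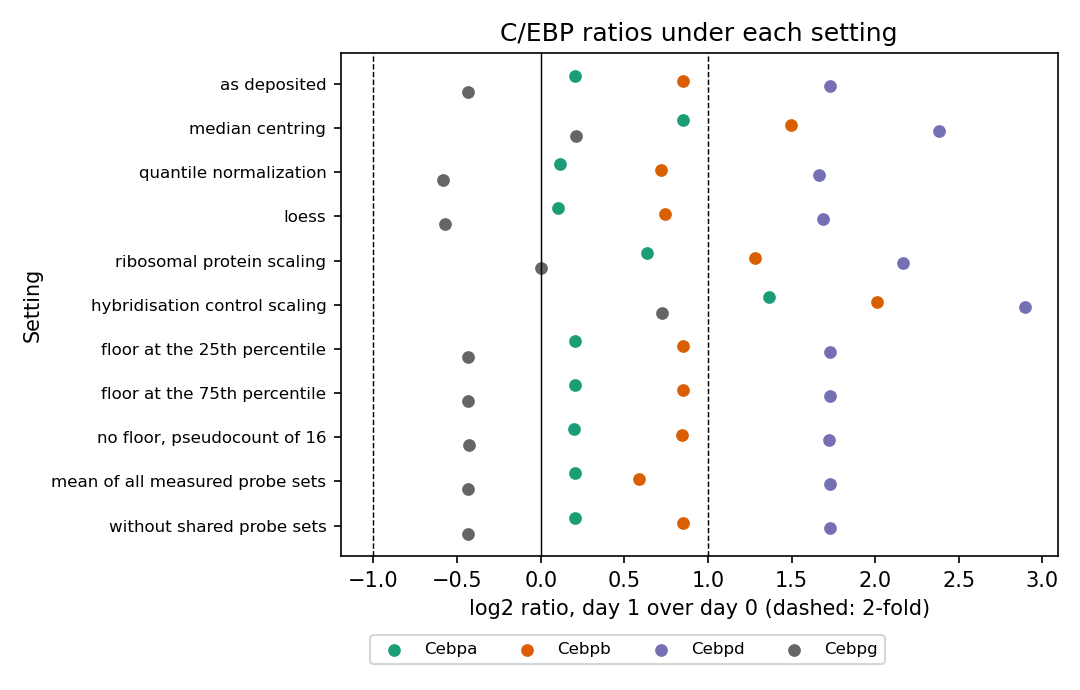
The log2 ratio of day 1 over day 0 (horizontal axis) of the 4 C/EBP genes, as deposited and in 10 alternative settings (rows), with dashed lines at 2-fold. Cebpd lies to the right of the 2-fold line in each row, and Cebpg lies on both sides of 0.

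The regions just before the start sites of the genes are shown because the 4 genes had unlike ratios. RefSeq's promoter table for GRCm38.p6 matched 3 of them, Cebpa, Cebpb and Cebpg. Each sequence is the 250 bases before the annotated start, read 5′ to 3′ on the gene's strand. Capitals mark TGACG or its reverse complement CGTCA, the core of sites for CREB and ATF factors.
Cebpb, chr2:167688665-167688914, plus strand: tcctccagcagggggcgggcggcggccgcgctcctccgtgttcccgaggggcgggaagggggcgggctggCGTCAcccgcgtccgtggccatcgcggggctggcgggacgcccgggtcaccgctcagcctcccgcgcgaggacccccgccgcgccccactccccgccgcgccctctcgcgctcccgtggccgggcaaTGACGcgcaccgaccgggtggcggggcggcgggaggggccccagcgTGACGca
Cebpa, chr7:35119043-35119292, plus strand: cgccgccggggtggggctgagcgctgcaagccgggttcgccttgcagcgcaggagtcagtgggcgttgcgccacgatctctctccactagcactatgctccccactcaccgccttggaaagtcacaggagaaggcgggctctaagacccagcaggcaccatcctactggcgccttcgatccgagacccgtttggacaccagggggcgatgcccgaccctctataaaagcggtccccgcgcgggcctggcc
Cebpg, chr7:35056567-35056816, minus strand: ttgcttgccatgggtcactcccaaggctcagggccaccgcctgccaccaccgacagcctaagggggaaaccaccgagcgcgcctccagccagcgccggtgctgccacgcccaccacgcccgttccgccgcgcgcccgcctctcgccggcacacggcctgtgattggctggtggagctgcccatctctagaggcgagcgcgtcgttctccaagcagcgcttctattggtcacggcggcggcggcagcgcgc
In the Cebpb window TGACG occurred 3 times over both strands, beginning 180, 53 and 7 bases before the start. The other windows held none. At least 1 match was present in 17.8% of 32851 windows of this length, and 3 or more in 0.69%. The Stat-type motif TTCNNNGAA, found in 7.02% of windows, was in none of the 3. The same was true of the palindromic C/EBP site TTGCGCAA (0.16% of windows) and of its looser form TTGCNNAA on either strand (9.56%); the looser form includes every match of the palindrome. The Cebpb window was 81.6% G or C, Cebpg's 70.8% and Cebpa's 66.4%, against a median of 52.4%. A match or its absence describes these letters and says nothing of binding. Cebpa and Cebpg lie on the same chromosome, on opposite strands, and had log2 ratios of 0.20 and -0.43.

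The cytokine axis that leads to Cebpd was covered by 17 genes chosen for their roles: ligands of the interleukin 6 family, their receptors, Jak kinases, Stat3 and its feedback genes. Of the 15 measured, 4 were higher and 1 lower by at least 2-fold, with a median log2 ratio of 0.50 against -0.12 over all measured genes. The number higher was 8 after median centring and 10 after hybridisation control scaling, and the number lower lay between 0 and 3 over the 10 alternatives. Of all measured genes, 10.4% were higher as deposited, 28.5% after median centring and 49.4% after hybridisation control scaling. The share lower was 13.3% as deposited and 2.20% on hybridisation controls, where the list had 0. The list had 3 lower with the pseudocount and with the floor at the 25th percentile. In these settings at least 22.5% of all measured genes were lower, so 3 does not set the list apart. Among ligands, Lif read 7.2 and 144.9, at least 1.86-fold higher, while Il6 was below the floor on both days. Il11 (114.4 and 28) and Osm (96.8 and 33.8) were below the floor on day 1, with log2 ratios of at most -0.56 and -0.32. The receptor gene Osmr read 159.9 and 2060.8 (3.69 log2), though its other 2 measured probe sets, each at the floor on 1 array, gave bounds of -0.29 and 1.66. Other receptor genes were lower or even as deposited at their brightest probe sets. Lifr was at -0.57 log2 (-1.85 and -1.09 at its other measured probe sets) and Il6ra at -0.92 (-0.78 at its other one). Il6st was at -0.017, with -0.13 to 0.77 at its other measured probe sets. Stat3 itself read 1641.4 and 6682.6, 4.07-fold higher, with 0.54 and 1.55 log2 at its other measured probe sets. Socs3, the feedback inhibitor, read 138.4 and 1300.4 (3.23 log2). Pim1, a kinase gene also induced by Stat5, lay on the other side with 1437.5 and 389.4 (-1.88 log2). So the Cebpd ratio of 1.73 log2 was below those of Stat3, Socs3 and Osmr at their brightest probe sets. It lay within the range of the Stat3 probe sets.

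Partners and regulators of the C/EBP proteins were represented by 18 genes, of which 14 were measured, 4 at least 2-fold higher and 0 lower, with a median of 0.49 log2. The number higher depended on the setting, with 10 after median centring, 7 on ribosomal protein genes, 12 on hybridisation controls and 2 with the floor at the 75th percentile. Of all measured genes 28.5%, 21.1%, 49.4% and 10.9% were higher in these settings. As deposited, the 4 were all genes of the AP-1 and ATF group of leucine zipper factors. Jun read 132.4 and 1196.1 (3.18 log2, and 1.14 at its other probe set), Atf3 95.1 and 401.3 (2.08 log2) and Fos 517.6 and 1566.4 (1.598 log2). Batf, at the floor on day 0, read 75.8 and 223.3, at least 1.52 log2. The classical dimer partners were under 2-fold as deposited. Ddit3, also called CHOP, read 186.5 and 326.1 (0.81 log2), and passed 2-fold after median centring (1.45) and when scaled on ribosomal protein genes (1.24) or hybridisation controls (1.97). Atf4 read 3389.5 and 3130.8, a log2 ratio of -0.11 that was above 0 after median centring (0.53) and when scaled on ribosomal protein genes (0.32) or hybridisation controls (1.05). Cebpe, the myeloid member of the family, is not analysed here.

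Genes that C/EBP proteins are known to bind or drive were described by their roles, without any claim that a C/EBP acted on them here. Of 25 acute phase and inflammatory genes, 16 were measured, 7 at least 2-fold higher and 1 lower, with a median of 0.74 log2. On hybridisation controls 13 were higher and 0 lower, against 49.4% and 2.20% of all measured genes. Hp, encoding haptoglobin, read 113.2 and 1628.9 (3.85 log2), and Cd14, a lipopolysaccharide co-receptor, 3816.8 and 29010.6 (2.93 log2). The day 1 signal of Cd14, like the day 0 signal of Scd1 below, was above 50% of the highest on its array, where brightness may not follow the amount of RNA. The serum amyloid genes Saa2 (3.76 log2) and Saa1 (3.63 log2) are near-identical paralogs whose probes may cross-react. The clotting genes Fga, Fgb and Fgg were below the floor on both arrays. As deposited, 3 of the 16 measured genes had a ratio below 0. Tnf read 313.5 and 138.9 (-1.17 log2) and was the 1 gene at least 2-fold lower. Il1b was at -0.91, and Ptgs2, at the floor on day 1, at most at -0.64. Orm1 (0.19) and Lbp (0.083) were close to even at their brightest probe sets, with -0.98 at the other probe set of Lbp. Of 13 genes on the list for growth arrest and cell death, 10 were measured, 5 at least 2-fold higher and 1 lower, with a median of 1.02. Those numbers became 8 and 0 on hybridisation controls, where 49.4% of all measured genes were higher and 2.20% lower. Cdkn1a, the cell cycle inhibitor p21, read 22.8 and 2010.2, at least 4.69 log2, and at least 3.12 at its other probe set. Igfbp5 was at 2.71 log2, the survival gene Bcl2l1 at 1.63 (bounds of 1.15 and 2.53 at its other measured probe sets) and the death effector Bak1 at 1.21.

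The adipogenic list, whose genes respond to C/EBPα and Pparg in fat cells, had 13 of 14 measured, 1 at least 2-fold higher and 3 lower. The median was -0.47 log2 as deposited, against -0.12 over all measured genes. It was 0.18 after median centring and 0.70 after hybridisation control scaling, against 0.50 and 0.99 over all measured genes. The list median lay below that of all measured genes in every setting. After hybridisation control scaling 4 were higher and 0 lower, against 49.4% and 2.20% of all measured genes. Lpl (-2.14 log2), Scd1 (-1.97) and Irs1 (-1.09) were the 3 lower genes, and the former pair also serve milk fat synthesis. Pck1 was at 1.40, against -0.41 at its other measured probe set. On the list of milk protein and lactation receptor genes 6 of 7 measured genes were at least 2-fold lower and 0 higher, with a median of -1.26, as deposited. The number lower was 1 after median centring, quantile normalization, loess and ribosomal protein scaling, and 0 on hybridisation controls, and the median was 0 after quantile normalization. Of all measured genes 13.3% were lower as deposited, and between 2.20% and 11.5% under these scalings. With 7 genes, a count of 1 cannot be set apart from such shares. Of the 7, 5 (Csn1s1, Csn2, Csn3, Wap and Lalba) exceeded 50% of the top signal of each array, so their ratios cannot be read as amounts of RNA. Csn2, a gene with C/EBPβ sites in its promoter, read 80907.5 and 31909 (-1.34 log2). Csn1s1 and Csn3, the latter the highest signal of the day 1 array, had -1.27 and -1.26. The oestrogen receptor gene Esr1, far below that range, had -1.91, and bounds of -1.42 and -0.63 at its other probe sets. A list of ribosome assembly genes stood for the process that the yeast relative of Cebpz serves. Of 14 measured, 1 was at least 2-fold higher and 0 lower, with a median of 0.33. The number higher was 7 after median centring, 4 on ribosomal protein genes and 12 on hybridisation controls, with medians of 0.98, 0.76 and 1.49. Of all measured genes 28.5%, 21.1% and 49.4% were higher under these scalings, with medians of 0.50, 0.29 and 0.99. Ncl, encoding nucleolin, was at 1.34, with 0.38 to 1.22 at its other measured probe sets. Noc3l (0.83), Npm1 (0.76) and Pes1 (0.62) were under 2-fold at their brightest probe sets. Other probe sets gave 1.31 for Npm1, above 2-fold, 0.097 for Pes1 and a bound of -0.27 for Noc3l.

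**Figure D4:**
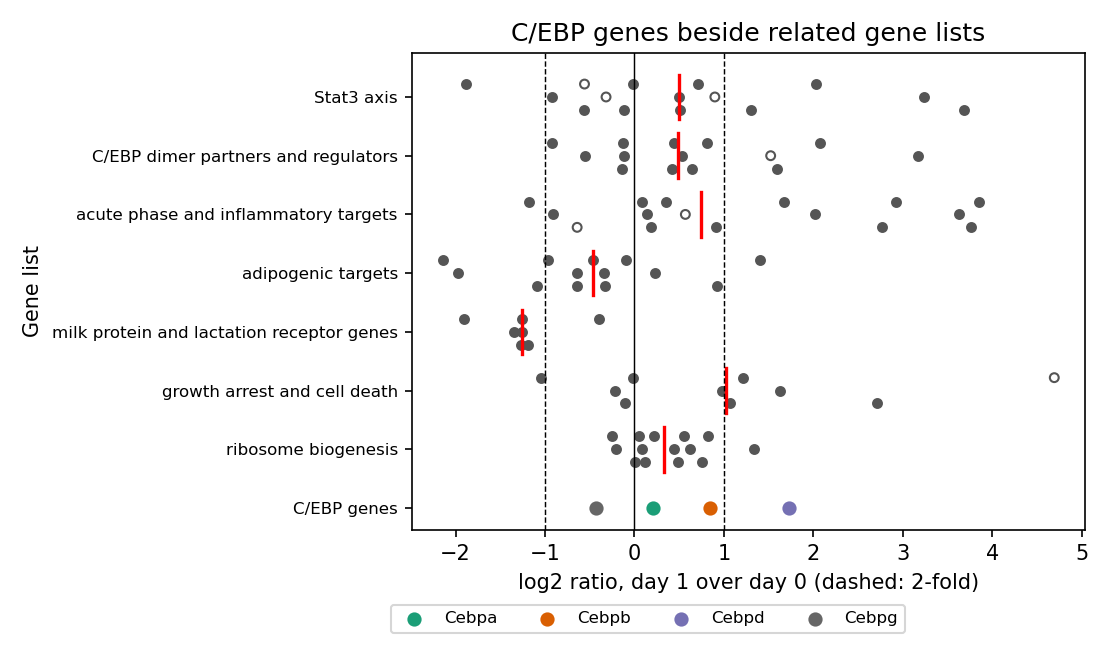
The log2 ratio of day 1 over day 0 (horizontal axis) of each measured gene (grey points; open points have 1 array at the floor and are bounds) in 7 gene lists, with red bars at list medians and dashed lines at 2-fold. The bottom row gives Cebpg, Cebpa, Cebpb and Cebpd at -0.43, 0.20, 0.85 and 1.73.

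C/EBP genes are active in several cell types of the gland, so markers of these were read beside them. Luminal epithelial markers, checked first against the tissue label, were all above the floor on both days. Their summed signal was 38125.5 on day 0 and 74600.2 on day 1, with 5 of 7 higher and 1, Elf5, lower by at least 2-fold. Macrophage markers had a sum of 6338.1 and 8151.7, with 3 of 7 measured at least 2-fold higher and 1 lower. Adipocyte markers summed to 19340.6 and 20630.1, with 0 of 6 past 2-fold in either direction. That sum was carried by Fabp4 (12869 and 15038.2), while 4 of the 6 were lower as deposited and the median was -0.28 log2. Of the neutrophil markers, Elane, Mpo, Camp and Cxcr2 were below the floor on both arrays. The list, signals below the floor included, summed to 559.1 and 839.5, with 1 of 3 measured at least 2-fold higher and 0 lower. The higher gene, S100a8, read 73.9, at the floor, and 386. S100a9 was at 0.11 log2 and Ngp at -0.83. Fibroblast markers summed to 18820.1 and 23225.9 (1 of 7 higher, 0 lower), myoepithelial ones to 19764.1 and 20803.1 (0 of 6 in either direction), a sum carried by Acta2, with 4 of 6 lower and a median of -0.29 log2 as deposited. Endothelial markers summed to 1200.9 and 920.7 (0 of 4 higher, 1 lower), and lymphocyte markers to 316.9 and 496.4 (2 of 3 higher, 1 lower). The 2 higher lymphocyte genes, Cd3d (5 and 206.2) and Cd79a (38.8 and 174.1), were at the floor on day 0. Cd3e, the lower one, read 273.1 and 116.1. All these counts and sums are as deposited, where 10.4% of all measured genes were at least 2-fold higher and 13.3% lower. They depend on the scaling. On hybridisation controls the myoepithelial median was 0.87 log2 and the endothelial one, -0.29 as deposited, was 0.88. Over all measured genes the median was -0.12 as deposited and 0.99 on hybridisation controls. The part of cell composition in the C/EBP ratios was not tested.

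The genes nearest to Cebpd in both signals at once were Shisa5 (1861.7 and 6448.6), Sqstm1 (2012.2 and 7781) and Clic1 (1732 and 6708.4). Their distances from Cebpd were 0.15, 0.20 and 0.24 log2 units over the 2 arrays. With 2 arrays this likeness means similar signals on each day and no more.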

How the data were processed

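Gene expression was measured on 2 Affymetrix mouse whole-genome arrays, 1 for each day. Per the labels, the authors computed each signal, an intensity on a linear scale, with Affymetrix Microarray Suite 5.0, and deposited it after scaling. The labels name no scaling target, and detection calls were not used.

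Of 45101 probe sets, 64 controls were set aside. The platform annotation gave 34945 of the rest a single symbol, updated by gene identifier to RefSeq's GRCm38.p6 names, and 932 several, which were left out. Ratios of day 1 over day 0, as log2, were taken after the floor, the 50th percentile of all signals. Of several probe sets of a gene, the brightest on average was used. Genes were called at 2-fold. With 1 array per day no test is possible, and the number of arrays limits the precision.

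The 5 scalings were centring each array on its median signal, quantile normalization, loess (span 0.3, statsmodels 0.14.6), and scaling on ribosomal protein genes or hybridisation controls below 50% of the highest signal. The 5 other alternatives were the mean of all measured probe sets, leaving out shared probe sets, a pseudocount of 16 in place of the floor, and floors at the 25th or the 75th percentile. Counts were also taken at 1.5-fold and 3-fold. Named genes were all member probe sets, the 4 largest absolute ratios of each of 7 lists, Stat3, Socs3, Lif, Osmr, Ddit3, Atf4 and Cebpe, and the 3 genes nearest to Cebpd in both log2 signals. Il6, Il11, Osm, Lifr, Il6ra, Il6st, Fga, Fgb, Fgg, Tnf, Il1b, Ptgs2, Orm1, Lbp and marker genes were named in addition, after their values were seen. Members and lists were chosen with earlier results of these data known. The scripts, in Python 3.11.15, were tested on simulated data.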

Additional observations from a re-analysis of the deposited data

How the results depend on the processing

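Floors and pseudocount, probe set choice, quantile normalization and loess left the direction of all 4 C/EBP ratios and their side of 2-fold as deposited. The other scalings did not. Cebpb passed 2-fold after median centring (1.498 log2), ribosomal protein scaling (1.28) and hybridisation control scaling (2.01), as Cebpa did after the last (1.37). Cebpg changed sign after median centring (0.21) and hybridisation control scaling (0.73). The number of members at least 2-fold higher, 1 as deposited, was 2 after median centring, 2 after ribosomal protein scaling, 3 after hybridisation control scaling and 2 at a threshold of 1.5-fold; the number lower was 0 throughout. These 3 scalings multiply each array by 1 factor, which shifts every ratio above the floor by the same amount. With them the share of all measured genes at least 2-fold higher rose as well, from 10.4% as deposited. It was 28.5% on array medians, 21.1% on ribosomal protein genes and 49.4% on hybridisation controls. At 1.5-fold the deposited share was 20.4%. The rise in the member count therefore cannot be told apart from a shift of all genes. Of 168 counts over the 7 gene lists, 54 moved by over 1.5 times. No alternative could be run for Cebpz, and no replicate could be left out. No paired analysis was possible because each day has 1 array.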
